A study of Mus musculus with 6 samples.

Results

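Albumin and the constitutive plasma carriers are 10 hepatocyte genes that were chosen by name: Alb, Ttr, Gc, Ahsg, Fetub, Hpx, Ambp, Itih1, Itih2 and Itih3. They are 10 of the 27179 genes counted, and all 10 passed the filter on low counts. Levels were read from RNA-seq of 6 livers of C57BL/6 mice, 3 wild type and 3 Mettl3-deficient. Mettl3 is the catalytic subunit of the methyltransferase that places m6A marks on messenger RNA, and neither how it was made deficient nor the age and sex of the animals or the hour of collection, is stated in the labels. Whether each liver came from its own animal is also not stated, so the p-values cover no more than the spread between these 6 samples.

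These genes encode proteins that hepatocytes release into blood at all times. Albumin holds the osmotic pressure of plasma and carries fatty acids, bilirubin and hormones. The others carry vitamin D, thyroid hormone and retinol, or heme, or act as inhibitors of proteases and of mineral deposition. In hepatocytes such genes are driven by liver-enriched transcription factors, among them HNF4A and C/EBP proteins, and several are known to fall in inflammation while hemopexin rises.

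Library totals ran from 31960205 to 36025772 counts. Levels are CPM, depth-scaled read counts after TMM scaling, a method that corrects for libraries in which a few abundant genes take different shares, and values per kilobase divide CPM by the length of all annotated exons. A gene is said to have risen or fallen when edgeR's quasi-likelihood test gave a Benjamini-Hochberg adjusted p under 0.05 over 14380 tested genes. By that rule 23.8% of all tested genes were called, 13.3% as higher and 10.5% as lower in the Mettl3-deficient group. Of the calls 55.7% were higher, against 89.0% where libraries were scaled by size alone. Mettl3 was at 13.4, 14.3 and 12.1 CPM in the wild-type livers and at 5.96, 6.60 and 4.94 CPM in the Mettl3-deficient livers. Wild-type liver 1 stood apart from the other wild-type libraries and, like Mettl3-deficient livers 1 and 2, held counts of Y-linked genes (4757 to 6514, against 11 or fewer in the other 3 libraries).

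Of the 10 genes, 3 fell (Alb, Fetub and Ambp) and 0 rose, which is 30.0% called, against 23.8% of all tested genes. The median log2 fold change of the 10, Mettl3-deficient against wild type, was -0.78, against 0.01 for all tested genes, and with library size alone it was -0.31, against 0.49. Gc, Itih1 and Ttr had log2 fold changes between -0.84 and -0.75 and groups that did not overlap, but did not pass the test, while Itih2, Hpx and Itih3 had positive values that did not pass it either. Groups did not overlap for 45.7% of all tested genes. With wild-type liver 2, wild-type liver 3 or Mettl3-deficient liver 1 left out, edgeR called 0 of the 10, and 3, 3 and 4 of them had an unadjusted p under 0.05. Over all genes, those fits called 840, 927 and 864 as higher and 585, 615 and 518 as lower. With all 6 libraries edgeR called 1906 as higher and 1514 as lower. DESeq2 with all 6 libraries called 6 of the 10 as lower. Over 19341 genes it called 2361 as higher and 2022 as lower, more than edgeR in both directions.

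**Figure D1:**
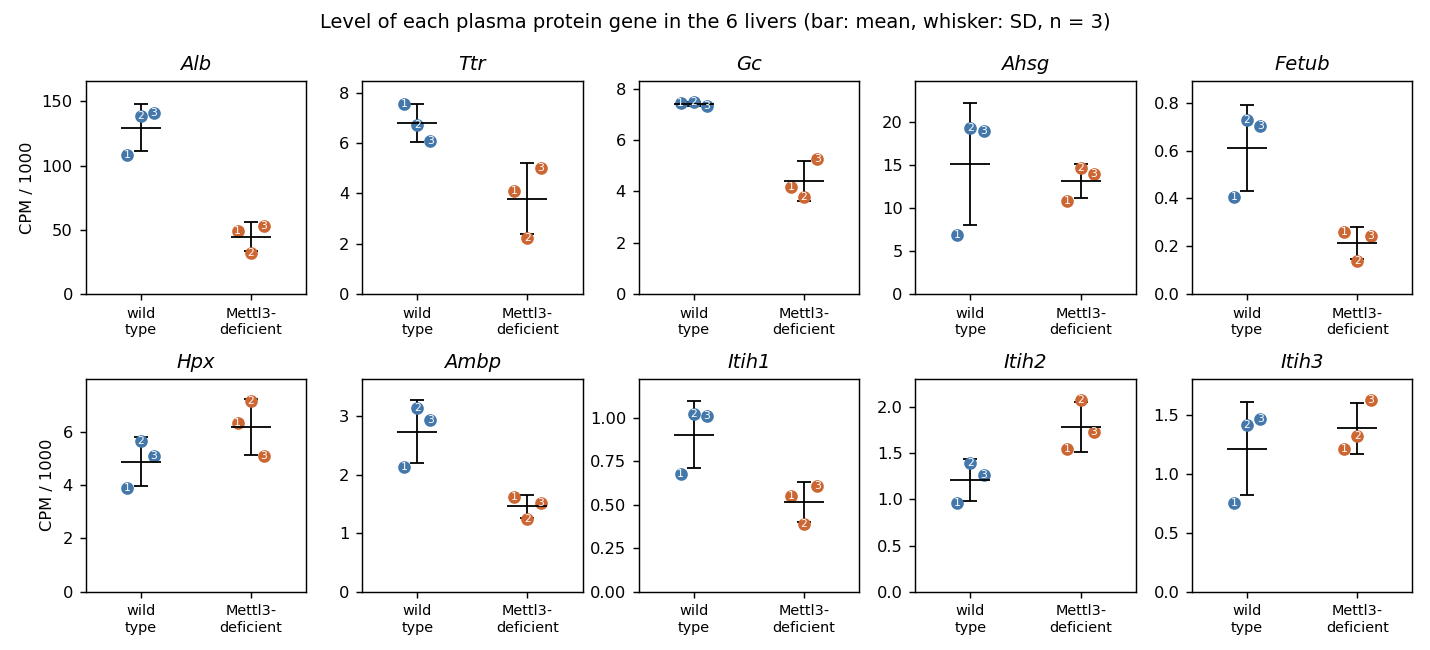
Level of each of the 10 genes, in CPM divided by 1000 on a linear axis from 0, in the 3 wild-type (blue) and 3 Mettl3-deficient (orange) livers, with points numbered by replicate, bars at the mean and whiskers of 1 SD. The groups are apart for Alb, Ttr, Gc, Fetub, Ambp, Itih1 and Itih2 and overlap for Ahsg, Hpx and Itih3.

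The bulk libraries measure RNA per liver sample, so fewer hepatocytes and less RNA per hepatocyte cannot be told apart. Together the 10 genes took 12.3%, 15.3% and 15.6% of all gene counts in the wild-type libraries and 9.25%, 8.15% and 9.90% in the Mettl3-deficient libraries. Without Alb, the other 9 took 2.71%, 3.87% and 3.77% and then 3.57%, 4.13% and 3.93%. The groups were apart for the sum with Alb and overlapped for the sum without it.

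**Figure D2:**
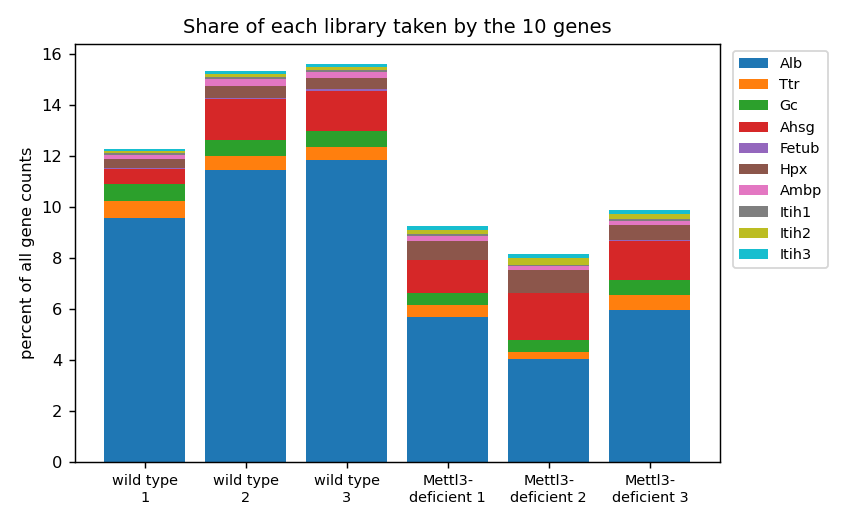
Share of all gene counts in each library, in percent, taken by each of the 10 genes, stacked. Alb fills most of each bar except that of Mettl3-deficient liver 2, where it takes 4.02% and the other genes together 4.13%. Alb is smaller in the 3 Mettl3-deficient libraries, where the 10 genes together take 8.15% to 9.90%.

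Alb (Entrez 11657, chromosome 5, 90460870 to 90476602 on the plus strand, GRCm38) was the most abundant gene in both groups and fell. Its level was 108639, 139045 and 141166 CPM in the wild-type livers and 48739, 32061 and 53329 CPM in the Mettl3-deficient livers. Every Mettl3-deficient liver was below every wild-type liver, and Mettl3-deficient liver 2 was the lowest. The log2 fold change was -1.54 ± 0.34 (SE), 2.90-fold lower (edgeR adjusted p = 0.0172). The call was lost without wild-type liver 2, wild-type liver 3 or Mettl3-deficient liver 1, where the log2 fold change was between -1.60 and -1.47 and the adjusted p at most 0.072. As a share of the total counts of each library, which is scaling by library size alone, Alb made up 9.57%, 11.5% and 11.9% of wild-type libraries. In Mettl3-deficient libraries it made up 5.68%, 4.02% and 5.97%.

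The 300 bases around the start of Alb are shown because Alb is the most abundant gene of the set and fell, and those of Fetub, Ambp, Itih1 and Itih2 follow below where those genes are described. Each window holds 250 bases before and 50 after the annotated start (RefSeq, GRCm38.p6, 5′ to 3′ on the gene's strand). Capitals mark matches on either strand to 5 motifs: TTNNGNAA (C/EBP and PAR bZIP type), CCAAT (the CCAAT box), TATAAA (the TATA box), CAAAGNNCA (HNF4 type) and TGTTTNC (FOXA type). A match overlapping another is run together with it.
Alb promoter: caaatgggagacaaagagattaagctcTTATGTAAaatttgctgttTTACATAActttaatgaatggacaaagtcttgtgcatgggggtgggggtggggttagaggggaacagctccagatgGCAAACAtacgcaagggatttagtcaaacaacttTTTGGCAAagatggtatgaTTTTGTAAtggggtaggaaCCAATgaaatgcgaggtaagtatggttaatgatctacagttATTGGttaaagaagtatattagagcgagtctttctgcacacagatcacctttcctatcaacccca
This window is chr5:90460620-90460919, plus strand. It holds 4 matches to TTNNGNAA, a pattern found in 40.7% of 32851 promoter windows of that length and in 7 of the 9 genes with a window. CCAAT was in 6 of the 9 windows against 37.4% of all, TATAAA in 2 against 13.6%, CAAAGNNCA in 1 against 6.36% and TGTTTNC in 5 against 20.5%. Some counted matches lie past the start. The only matches of Itih3 to TATAAA, Hpx to CAAAGNNCA, Ahsg to CCAAT and Gc to TTNNGNAA lie 3, 8, 22 and 29 bases after it. These are matches of letters, and binding was not measured. Ttr was not matched.

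Gc encodes the vitamin D-binding protein and lies near Alb in the albumin gene family on chromosome 5 (Entrez 14473, 89417511 to 89457898, minus strand). Gc was at 7431, 7486 and 7324 CPM in the wild-type livers, a narrow range, and at 4167, 3786 and 5274 CPM in the Mettl3-deficient livers. All 3 Mettl3-deficient values were below the wild-type values, yet the difference did not pass the test (log2 fold change -0.75 ± 0.26 SE, edgeR adjusted p = 0.0737). DESeq2 called it as lower. Against Alb in the same library, which does not depend on scaling, Gc had 68.4, 53.8 and 51.9 counts per 1000 Alb counts in wild type and 85.5, 118 and 98.9 in Mettl3-deficient livers. That ratio was higher in 3 of 3 Mettl3-deficient livers, by 0.80 on the log2 scale (exact permutation p = 0.1 two-sided, the smallest that 3 against 3 allows, and 0.16 adjusted over the 8 ratios tested).

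Of 8 tested relatives of the 10 genes by family, 2 rose and 4 fell, with a median log2 fold change of -0.58 that was -0.11 with library size alone, and without wild-type liver 2, wild-type liver 3 or Mettl3-deficient liver 1 only Afm fell. The relatives in the albumin family moved in opposite directions. Afp, the albumin-like carrier of the fetal liver, starts 14112 bases beyond the end of Alb and rose from 1.99, 2.12 and 3.07 CPM to 4.59, 6.71 and 9.12 CPM (log2 fold change 1.51 ± 0.34 SE, edgeR adjusted p = 0.0181). Its call was lost without wild-type liver 2. Afm, which encodes afamin, a vitamin E-binding protein, fell from 351, 473 and 440 CPM to 111, 82.2 and 103 CPM (log2 fold change -2.09 ± 0.22 SE, edgeR adjusted p = 0.00187) and kept its call whichever library was left out. Per 1000 Alb counts, Afp had 0.0183, 0.0153 and 0.0217 counts in wild type and 0.0942, 0.209 and 0.171 in Mettl3-deficient livers, 8.22-fold higher (exact permutation p = 0.1, adjusted 0.16). Afp stayed at or below 9.12 CPM, far under the 32061 CPM of the lowest Alb value. On the other side of Alb, the nearest tested gene was Ankrd17, 92177 bases away, with a value of 0.12 (log2, edgeR adjusted p = 0.568).

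Transthyretin (Ttr, Entrez 22139, chromosome 18, 20664209 to 20674326, plus strand) carries thyroxine and, through retinol-binding protein, retinol. Ttr was at 7563, 6694 and 6065 CPM in wild type and at 4105, 2232 and 5013 CPM in Mettl3-deficient livers. The groups did not overlap, and Mettl3-deficient liver 2 was the lowest, but the change did not pass the test (log2 fold change -0.84 ± 0.35 SE, edgeR adjusted p = 0.113). Among the 3 libraries with Y-linked counts the log2 difference was -1.32, and among the other 3 it was -0.35. Per 1000 Alb counts, Ttr had 69.6, 48.1 and 43.0 counts in wild type and 84.2, 69.6 and 94.0 in Mettl3-deficient livers. Those groups overlapped (log2 difference 0.65, exact permutation p = 0.2, adjusted 0.229). B4galt6, a galactosyltransferase gene 10273 bases beyond Ttr, rose from 2.70, 2.12 and 2.29 CPM to 8.04, 5.67 and 6.36 CPM (edgeR adjusted p = 0.0088). Rbp4, which encodes retinol-binding protein, fell from 3610, 4716 and 4448 CPM to 1619, 1404 and 1855 CPM (log2 fold change -1.39 ± 0.26 SE, edgeR adjusted p = 0.0113), and lost its call without wild-type liver 2 or Mettl3-deficient liver 1. Rbp4 had 477, 704 and 733 counts per 1000 Ttr counts in wild type and 394, 629 and 370 in Mettl3-deficient livers, groups that overlapped (exact permutation p = 0.2, adjusted 0.229).

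Other genes of thyroid hormone carriage and use also differed. Serpina7, which encodes thyroxine-binding globulin, rose from 34.9, 5.55 and 9.50 CPM to 317, 380 and 218 CPM, 18.3-fold (log2 fold change 4.20 ± 0.73 SE, edgeR adjusted p = 0.0105), and kept its call whichever library was left out. Dio1, the deiodinase that makes active thyroid hormone in liver, fell from 76.8, 193 and 221 CPM to 38.6, 18.4 and 55.0 CPM (edgeR adjusted p = 0.0244). Thrb, the main thyroid hormone receptor of liver, fell from 45.0, 36.1 and 39.1 CPM to 21.8, 14.3 and 29.6 CPM (edgeR adjusted p = 0.0434). The calls of Dio1 and Thrb were each lost without wild-type liver 2 or 3 or Mettl3-deficient liver 1 or 2, and that of Thrb also without wild-type liver 1.

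Hemopexin (Hpx, Entrez 15458, chromosome 7, 105591611 to 105600116, minus strand) binds free heme and delivers it to hepatocytes. It was at 3888, 5673 and 5092 CPM in wild type and 6323, 7161 and 5089 CPM in Mettl3-deficient livers. The groups overlapped, since Mettl3-deficient liver 3 lay within the wild-type range, and the change did not pass the test (log2 fold change 0.34 ± 0.28 SE, edgeR adjusted p = 0.403). Scaled by library size alone, Hpx was at 0.83 (log2) and was called (edgeR adjusted p = 0.0414). That scaling moved the median of all tested genes to 0.49. Among the libraries with Y-linked counts the log2 difference of Hpx was 0.79, and among the others it was -0.08. By mean level, Hpx ranked 23 among all genes in wild-type and 10 in Mettl3-deficient livers, while Ttr went from 15 to 18 and Gc from 12 to 16.

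The fetuins Ahsg and Fetub are neighbours on chromosome 16, 18931 bases apart, and Fetub fell while Ahsg did not pass the test. Fetuin-A, from Ahsg (Entrez 11625, 22892015 to 22899451, plus strand), binds calcium phosphate and inhibits calcification, and fetuin-B, from Fetub (Entrez 59083, 22918382 to 22939768, plus strand), inhibits proteases of the astacin family. Ahsg was at 6923, 19392 and 19041 CPM in wild type and at 10871, 14631 and 14014 CPM in Mettl3-deficient livers. Wild-type liver 1 was the lowest of all 6 and the other wild-type livers were the highest. Ahsg did not pass the test (log2 fold change -0.20 ± 0.42 SE, edgeR adjusted p = 0.756), and its sign turned with library size alone (0.29), with a term for Y-linked counts (0.21) and without wild-type liver 2 (0.02). Among the libraries with Y-linked counts its log2 difference was 0.87, and among the others -0.46.

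Fetub fell. It was at 405, 729 and 704 CPM in wild type and 260, 139 and 245 CPM in Mettl3-deficient livers, and no values overlapped. The log2 fold change was -1.51 ± 0.34 (SE), 2.86-fold lower (edgeR adjusted p = 0.0183). The call was lost without wild-type liver 2, wild-type liver 3 or Mettl3-deficient liver 1, with an adjusted p of at most 0.0659. Per 1000 Ahsg counts, Fetub had 58.5, 37.6 and 37.0 counts in wild type and 23.9, 9.48 and 17.5 in Mettl3-deficient livers, lower in 3 of 3 and by 2.74-fold (exact permutation p = 0.1, adjusted 0.16). Its promoter window, chr16:22918132-22918431 on the plus strand, differs from that of Alb in holding a TATAAA match.
Fetub promoter: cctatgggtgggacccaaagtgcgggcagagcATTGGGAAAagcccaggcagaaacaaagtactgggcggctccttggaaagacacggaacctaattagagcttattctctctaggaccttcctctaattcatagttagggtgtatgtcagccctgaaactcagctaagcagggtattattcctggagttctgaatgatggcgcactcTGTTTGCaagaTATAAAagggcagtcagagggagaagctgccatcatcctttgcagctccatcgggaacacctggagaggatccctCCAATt

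Next to the fetuins on chromosome 16 lie genes of the same cystatin superfamily, and 3 of them fell. Hrg, which encodes histidine-rich glycoprotein, fell from 589, 1096 and 1161 CPM to 409, 205 and 434 CPM (edgeR adjusted p = 0.0317). Kng1 and Kng2, near-identical kininogen genes whose reads can be split between copies, fell 1.91- and 1.69-fold (edgeR adjusted p = 0.0298 and 0.0231). All 3 lost their calls without wild-type liver 2, wild-type liver 3 or Mettl3-deficient liver 1, Hrg also without Mettl3-deficient liver 2 and Kng1 also without Mettl3-deficient liver 3. On the other side of Ahsg, the chaperone gene Dnajb11 was at -0.16 (log2, edgeR adjusted p = 0.718).

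The last 4 genes build the inter-alpha-inhibitors. Ambp (Entrez 11699, chromosome 4, 63143275 to 63154172, minus strand) encodes a precursor that is cut into alpha-1-microglobulin, a small carrier that binds heme, and bikunin, a protease inhibitor. A chondroitin sulfate chain on bikunin is bound to heavy chains, which are the products of Itih1, Itih2 and Itih3 and pass to hyaluronan in the matrix. Ambp fell, from 2136, 3142 and 2946 CPM to 1615, 1240 and 1526 CPM, with no overlap (log2 fold change -0.91 ± 0.27 SE, edgeR adjusted p = 0.0443). The call was lost in 5 of the 6 fits that left out 1 library, all but that without wild-type liver 1, with an adjusted p of at most 0.152. It was also lost with library size alone (log2 fold change -0.43, adjusted p = 0.175).

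Of the heavy chain genes Itih1, Itih2 and Itih3, none passed the test. Itih1 (Entrez 16424, chromosome 14, 30929180 to 30943289, minus strand) was at 678, 1023 and 1009 CPM in wild type and 549, 390 and 608 CPM in Mettl3-deficient livers. The groups did not overlap, and the change did not pass the test (log2 fold change -0.81 ± 0.28 SE, edgeR adjusted p = 0.0706), except without wild-type liver 1 (adjusted p = 0.0381). Itih2 (Entrez 16425, chromosome 2, 10094591 to 10130683, minus strand) was at 955, 1396 and 1267 CPM in wild type and 1544, 2079 and 1733 CPM in Mettl3-deficient livers. Here every Mettl3-deficient liver was above every wild-type liver, and the change did not pass the test (log2 fold change 0.57 ± 0.26 SE, edgeR adjusted p = 0.149), though it did with library size alone (1.05, adjusted p = 0.0142). Itih3 (Entrez 16426, chromosome 14, 30908572 to 30923787, minus strand) was at 756, 1417 and 1466 CPM in wild type and 1214, 1318 and 1629 CPM in Mettl3-deficient livers, groups that overlapped (log2 fold change 0.19 ± 0.31 SE, edgeR adjusted p = 0.68). Its sign turned without wild-type liver 1 (-0.06).

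Ratios within each library need no scaling between libraries. Itih1 had 318, 325 and 342 counts per 1000 Ambp counts in wild type and 340, 315 and 398 in Mettl3-deficient livers, and the groups overlapped (log2 difference 0.09, exact permutation p = 0.7). Itih2 had 447, 444 and 430 counts per 1000 Ambp counts in wild type, within a narrow range, and 956, 1677 and 1136 in Mettl3-deficient livers. That is 2.77-fold higher and higher in 3 of 3 livers (exact permutation p = 0.1, adjusted 0.16). Itih3 had 354, 451 and 498 counts per 1000 Ambp counts against 752, 1063 and 1068, 2.21-fold higher and higher in 3 of 3 (exact permutation p = 0.1, adjusted 0.16). In wild-type livers Ambp thus outnumbered each heavy chain gene in counts, and in 2 of the 3 Mettl3-deficient livers it no longer did for Itih2 and Itih3. These counts take no account of gene length. Per kilobase of exon, Ambp was at 1146, 880 and 1083 CPM in the Mettl3-deficient livers and stayed above both. Itih2 was at 466, 627 and 523 there, and Itih3 at 334, 362 and 448.

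**Figure D3:**
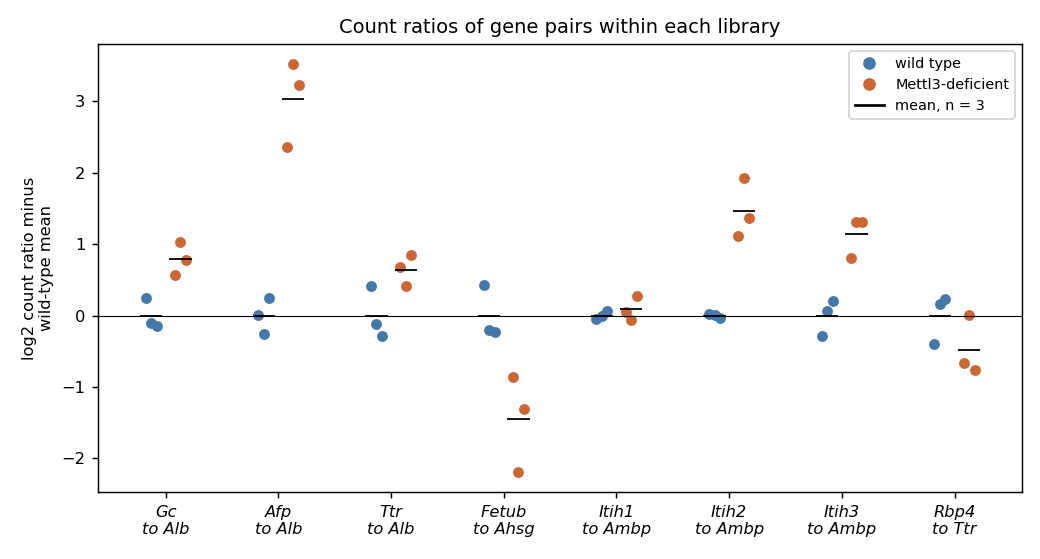
Log2 ratio of the counts of 2 genes in the same library, minus the wild-type mean of that ratio, for the 3 wild-type (blue) and 3 Mettl3-deficient (orange) livers, with lines at the mean. Itih2 and Itih3 against Ambp, Gc and Afp against Alb lie higher in all 3 Mettl3-deficient livers, and Fetub against Ahsg lies lower. Itih1 against Ambp, Ttr against Alb and Rbp4 against Ttr overlap.

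The promoter windows of Ambp, Itih1 and Itih2 are set side by side because these genes make the parts of the same complexes, and the ratio of Itih2 to Ambp was higher in all 3 Mettl3-deficient livers. They are chr4:63154123-63154422, chr14:30943240-30943539 and chr2:10130634-10130933, all on the minus strand, with capitals as above.
Ambp promoter: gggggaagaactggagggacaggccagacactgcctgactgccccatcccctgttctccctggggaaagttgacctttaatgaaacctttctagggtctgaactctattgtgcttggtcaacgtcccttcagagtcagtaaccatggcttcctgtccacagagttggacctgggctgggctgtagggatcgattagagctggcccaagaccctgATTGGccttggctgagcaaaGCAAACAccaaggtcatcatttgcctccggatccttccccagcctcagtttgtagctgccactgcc
Itih1 promoter: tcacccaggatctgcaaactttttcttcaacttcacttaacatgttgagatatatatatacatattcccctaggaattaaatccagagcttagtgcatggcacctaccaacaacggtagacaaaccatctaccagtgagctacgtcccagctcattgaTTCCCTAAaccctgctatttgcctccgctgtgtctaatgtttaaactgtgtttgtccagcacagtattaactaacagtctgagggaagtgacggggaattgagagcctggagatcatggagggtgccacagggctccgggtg
Itih2 promoter: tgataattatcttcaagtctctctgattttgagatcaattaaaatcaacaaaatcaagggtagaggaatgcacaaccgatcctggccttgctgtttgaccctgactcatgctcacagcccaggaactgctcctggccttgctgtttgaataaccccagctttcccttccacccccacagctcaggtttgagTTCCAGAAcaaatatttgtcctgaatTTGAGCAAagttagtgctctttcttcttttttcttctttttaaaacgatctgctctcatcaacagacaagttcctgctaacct
Itih2 and Itih1 hold matches to TTNNGNAA alone among the 5 motifs, and Ambp holds a CCAAT and a TGTTTNC match, each on the reverse strand.

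Of the other heavy chain genes, 1 was called. Itih5, the next tested gene beyond Itih2 at a distance of 22853 bases, rose from 19.3, 22.8 and 30.1 CPM to 159, 222 and 202 CPM, 8.09-fold (log2 fold change 3.02 ± 0.24 SE, edgeR adjusted p = 0.000691), and kept its call whichever library was left out. Itih4, beside Itih3 on chromosome 14, was at 968, 2112 and 2015 CPM in wild type and 1225, 1555 and 1250 CPM in Mettl3-deficient livers (log2 fold change -0.34, edgeR adjusted p = 0.489). On the far sides of the clusters, Kin next to Itih2 had a log2 fold change of -0.38 and Nek4 next to Itih1 of 0.25, neither called.

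**Figure D4:**
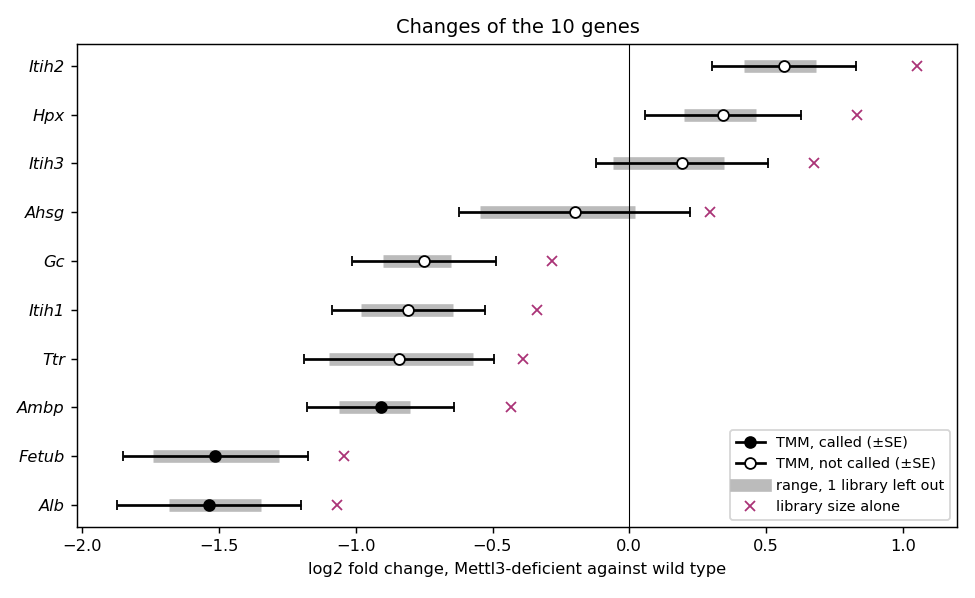
Log2 fold change of each gene, Mettl3-deficient against wild type, with 1 SE (black points, filled where the edgeR adjusted p is under 0.05), the range over the 6 fits that left out 1 library (grey) and the value with library size alone (crosses). Alb, Fetub and Ambp are filled and lie between -1.54 and -0.91, and Itih2, Hpx and Itih3 lie above 0.

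Levels per kilobase of exon allow the genes to be ranked against each other. In wild-type livers Alb was at 55344 ± 7770 CPM per kilobase (SD, n = 3), followed by Ahsg (6881 ± 3232), Ttr (5711 ± 634), Gc (4018 ± 44.5), Hpx (3259 ± 607), Ambp (1946 ± 378), Itih2 (364 ± 68.3), Itih3 (333 ± 109), Fetub (312 ± 91.8) and Itih1 (274 ± 59.2). The wild-type range of Ahsg spanned values of Ttr, Gc and Hpx, and the ranges of Itih2, Itih3, Fetub and Itih1 overlapped each other, while Ttr, Gc, Hpx and Ambp were apart. In Mettl3-deficient livers Alb was at 19091 ± 4779 CPM per kilobase, followed by Ahsg (5995 ± 918), Hpx (4130 ± 695), Ttr (3190 ± 1196), Gc (2390 ± 419), Ambp (1036 ± 139), Itih2 (539 ± 81.9), Itih3 (381 ± 59.5), Itih1 (157 ± 34.2) and Fetub (109 ± 33.7). Hpx thus stood above Ttr and Gc in the second order and below both in the first, and its range overlapped that of Ttr in Mettl3-deficient livers. Ttr and Gc overlapped there too, as did Itih1 and Fetub, and other neighbours in that order were apart.

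Since m6A is written mostly at short motifs of which GGACT is a common form, matches to these letters were counted in the longest coding transcript of each gene (GENCODE M21, GRCm38). Methylation was not measured here. The 10 transcripts held between 1 and 7 matches, and by density they ran from 0.492 per kilobase in Alb to 2.34 in Itih3, against a median of 1.06 and quartiles of 0.65 and 1.53 over 13279 tested genes. Alb, Gc, Ahsg, Itih1, Itih2 and Itih3 had a match within 200 bases of the stop codon, as did 40.4% of all tested genes. The matches nearest the stop codon are shown for Alb and for 3 heavy chain genes, with 10 bases on either side and the motif in capitals.
Alb: tgaagactcaGGACTcatcttttct
Itih1: caatggagctGGACTgattgatggt
Itih3: caatggagaaGGACTaattgatggt
Itih2: gcctgcagaaGGACTacaggacgga
The Alb match is its only one and begins 61 bases past the first base of the stop codon, in the 3′ untranslated region. Those of Itih1 and Itih3 both begin 48 bases before that base, in closely similar sequence, and that of Itih2 begins 133 bases before it, and nothing is read from these positions about the levels.

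Among the other plasma carriers and binding proteins, 8 of 23 tested genes fell and 1, Serpina7, rose. That is 39.1% called, against 23.8% of all tested genes. The median log2 fold change was -0.61, and was -0.20 with the Y-linked term and -0.13 with library size alone. Azgp1, which encodes zinc-alpha-2-glycoprotein, fell from 2218, 1760 and 1719 CPM to 701, 520 and 796 CPM (edgeR adjusted p = 0.00952) and kept its call whichever library was left out. Pzp, a large protease inhibitor of the alpha-2-macroglobulin family, fell 2.83-fold and Rbp4 2.62-fold. The genes of beta-2-glycoprotein I (Apoh), paraoxonase (Pon1), selenoprotein P (Selenop), apolipoprotein M (Apom) and murinoglobulin (Mug1, with near-identical copies) fell 2.38-, 2.83-, 2.08-, 2.32- and 4.35-fold. Without wild-type liver 2, wild-type liver 3 or Mettl3-deficient liver 1, 1, 3 and 1 of the 23 fell.

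Of 22 regulators of hepatocyte secreted-protein genes, 9 fell and 1 rose, which is 45.5% called, against 23.8% of all tested genes. The median log2 fold change was -0.72, and was -0.24 with library size alone, where 4 fell. Dbp, a PAR bZIP factor named for the D site of the albumin promoter, fell from 3.13, 8.49 and 16.2 CPM to 0.174, 0.288 and 1.09 CPM (log2 fold change -4.16 ± 0.84 SE, edgeR adjusted p = 0.0149). Dbp and its relative Tef are clock-controlled, and the hour of collection is not given. Tef fell from 59.7, 207 and 224 CPM to 18.1, 10.4 and 33.8 CPM (edgeR adjusted p = 0.0178). Cebpa fell from 678, 740 and 662 CPM to 250, 173 and 363 CPM (edgeR adjusted p = 0.0159), and Onecut2 2.36-fold. Hnf4a, Foxa1, Nfia and Nfib fell between 1.66- and 2.24-fold. Zfhx3, known in mammals as a repressor of Afp, rose from 11.4, 6.75 and 5.25 CPM to 14.8, 19.4 and 14.6 CPM (edgeR adjusted p = 0.0381), and lost its call in all fits but that without wild-type liver 1 of those that left out 1 library. Without wild-type liver 2 or 3 or Mettl3-deficient liver 1 or 2, 2, 3, 3 and 3 of the 22 fell. Onecut2 was called in each of the 6 fits and Dbp in 5.

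Of 18 tested genes that make or bind the inter-alpha-inhibitors, 4 rose and 1 fell, 27.8% called, which is near the 23.8% of all tested genes, with a median log2 fold change of 0.40. With library size alone 10 were higher and 0 lower, and the median was 0.89. Cd44, a hyaluronan receptor, rose from 5.47, 5.37 and 6.17 CPM to 17.1, 16.5 and 19.3 CPM (edgeR adjusted p = 0.00183). Ugdh, which makes the UDP-glucuronate used for glycosaminoglycan chains, rose from 153, 128 and 125 CPM to 479, 517 and 348 CPM (edgeR adjusted p = 0.00409). Chpf, a chondroitin polymerizing factor, rose 4.16-fold and B3galt6, an enzyme of the linker between chain and protein, 1.76-fold, while Chpf2, a second polymerizing factor, fell 1.76-fold. Cd44, Ugdh and Chpf kept their calls whichever library was left out, whereas the fall of Chpf2 was lost without wild-type liver 2 or 3 or Mettl3-deficient liver 1 or 2, and B3galt6 was called only without wild-type liver 1.

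The secretory route, through which all of these proteins pass, had 6 of 35 genes lower and 1 higher, 7 called in all. That is a smaller share than the 23.8% called among all tested genes. The median log2 fold change was -0.08, and was -0.25 with the Y-linked term. It turned positive with library size alone (0.39), without wild-type liver 1 (0.02) and without Mettl3-deficient liver 3 (0.04). Sar1b, the GTPase that starts COPII coat assembly, fell from 158, 127 and 125 CPM to 47.6, 29.9 and 49.0 CPM (edgeR adjusted p = 0.00406). Mia2, a protein of endoplasmic reticulum exit sites, and Sec24a, a COPII cargo adaptor, fell 2.06- and 2.05-fold, and all 3 kept their calls whichever library was left out. Ssr4 and Sec11c fell 1.74- and 1.72-fold, Sec31a fell by 0.58 on the log2 scale and the cargo receptor Tmed10 rose 1.36-fold. The calls of Ssr4 and Sec11c were lost without wild-type liver 2, wild-type liver 3 or Mettl3-deficient liver 1, that of Sec11c also without Mettl3-deficient liver 2, and those of Sec31a and Tmed10 in every such fit. The number that fell was 3 without any of those first 3 libraries, and 4 rose without Mettl3-deficient liver 3 and 2 without wild-type liver 1.

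Uptake receptors and ligand partners had a median log2 fold change of -0.38 that was 0.09 with library size alone. Of 15 tested genes, 4 were lower and 0 higher, 26.7% called against 23.8% of all tested genes. Besides Dio1 and Thrb these were the subunits of the asialoglycoprotein receptor, Asgr1 and Asgr2, lower by 1.64- and 1.71-fold. All 4 calls were lost without wild-type liver 2 or 3 or Mettl3-deficient liver 1, and 3 of them without Mettl3-deficient liver 2. With the Y-linked term 2 of the 15 fell and the median was -0.18. Of 20 genes listed as positive acute phase, 6 fell and 0 rose, 30.0% called against 23.8% of all tested genes. Their median was -0.84, and was -0.46 without wild-type liver 3 and -0.37 with library size alone. Log2 fold changes were below 0 for 17 and above 0 for 3. The 14 not called included Saa1, Saa2, Hp, Lcn2 and Lbp (edgeR adjusted p from 0.112 to 0.982). Crp fell from 553, 554 and 554 CPM to 66.5, 42.4 and 52.0 CPM (edgeR adjusted p = 0.000651) and Saa4 from 280, 514 and 410 CPM to 32.6, 16.2 and 53.6 CPM (edgeR adjusted p = 0.00384). Fgb, Fgg, Hamp and Serpina3m, the last with near-identical copies, fell between 2.26- and 3.22-fold, and 2, 2 and 3 of the 20 fell without wild-type liver 2, wild-type liver 3 and Mettl3-deficient liver 1.

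**Figure D5:**
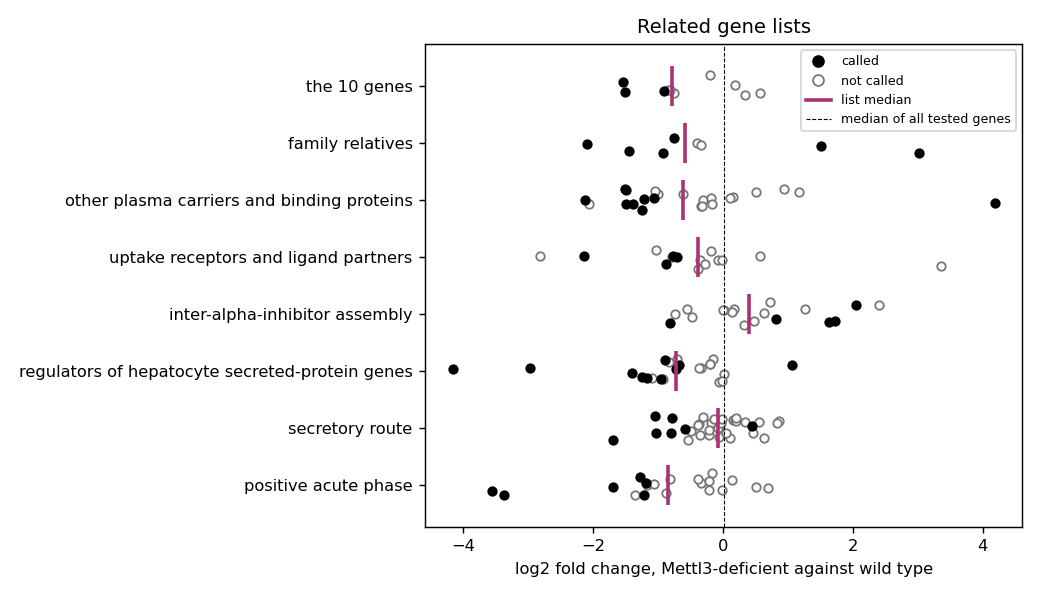
Log2 fold change, Mettl3-deficient against wild type, of each tested gene in the 10 and in 7 related lists, filled where called, with the list median (purple) and the median of all tested genes (dashed). Most list medians lie below 0, and that of inter-alpha-inhibitor assembly lies at 0.40.

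The genes whose level followed that of Alb most closely over the 6 libraries, among 1469 others with a mean of at least 100 CPM, were Upb1, Pzp, Asgr2, Hsd17b10 and Cd302, with Pearson correlations of log2 CPM from 0.997 to 0.999. The 6 points share the split into groups, so high values are reached by many genes that differ between groups. Among the 10 genes themselves, the correlation with Alb was 0.978 for Fetub, 0.973 for Ambp, 0.969 for Gc, 0.954 for Itih1 and 0.887 for Ttr, and was 0.17 for Ahsg, -0.15 for Itih3, -0.63 for Hpx and -0.79 for Itih2.

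Markers of hepatocytes that are not secreted were summed as a check of the tissue. The summed level of 10 such genes, among them Cps1, Arg1 and Cyp2e1, was 17450 to 29390 CPM in wild-type and 8967 to 14670 CPM in Mettl3-deficient livers, with all 10 log2 fold changes below 0 and 3 genes called, whose calls were lost without wild-type liver 2, wild-type liver 3 or Mettl3-deficient liver 1. Asgr1 is in this list and among the uptake receptors. The sum of 9 macrophage markers was 144 to 453 CPM in wild-type and 432 to 764 CPM in Mettl3-deficient livers, that of 7 endothelial markers 164 to 245 and 151 to 187 CPM, and that of 6 cholangiocyte markers 84.5 to 109 and 76.1 to 225 CPM. The sum of 8 stellate and fibroblast markers was 348 to 382 and 264 to 492 CPM, that of 6 lymphocyte and neutrophil markers 9.66 to 11.3 and 14.9 to 23.3 CPM, and that of 4 erythroid genes 59.6 to 204 and 26.9 to 51.7 CPM. The groups were apart for the hepatocyte, lymphocyte and neutrophil, and erythroid sums and overlapped for the others, and no marker was at 0 in all 6 libraries. All 9 macrophage markers (2 rose) and all 6 cholangiocyte markers (1 rose) had log2 fold changes above 0. So did 4 of the 6 lymphocyte and neutrophil markers (2 rose). All 4 erythroid genes (3 fell) and 4 of the 7 endothelial markers (1 fell) were below 0. Stellate and fibroblast markers split 4 and 4, with 0 called. Over all tested genes 23.8% were called. With 1 library left out, these calls dropped as low as 0, or 1 for the erythroid genes. The part of cell composition in the changes of the 10 genes was not tested.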

How the data were processed

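Total RNA of frozen liver was depleted of ribosomal RNA and made into directional libraries, per the labels' protocols. HISAT2, featureCounts and mm10 are named in the submitters' processing notes, with no versions, annotation or strand setting. The files deposited by the authors hold unnormalised read counts by Entrez identifier, and 25275 of 27179 matched a RefSeq symbol (GRCm38.p6, the same build). None of the 10 genes overlaps another counted gene in that annotation.

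The test was the robust quasi-likelihood F test of edgeR 4.0.16 under R 4.3.3, with TMM factors, the group as the design and filterByExpr (minimum count 10, minimum total 15). The script was tested on simulated data. Every adjusted p is over all 14380 tested genes. Each SE is the log2 fold change over the root of F. The 8 ratios were tested by exact permutation. Depth limits little here: the least counted of the 10 genes, Fetub, had at least 6267 counts per library, and replicate spread sets the error.

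The 10 genes, the lists and the tests were chosen with earlier results of these data known. Named genes are the 10, up to 4 of each list by smallest p, ratio partners, the nearest tested neighbours, the 5 most like Alb, and Mettl3; other called list genes were named after their values were seen. Itih6 and Hbb-bt of the lists were not analysed here, and 1 regulator is counted in its list but not reported here by name. Alternatives were RLE factors, library size alone, no filter on low counts, DESeq2 1.42.0, removal of the 20 most abundant genes, library sizes without Alb, the replicate number as a block, a term for more than 100 Y-linked counts, and each library left out in turn. No 2 libraries of a group agreed within sampling noise (chi-square per degree of freedom of at least 16.2).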

Additional observations from a re-analysis of the deposited data

How the results depend on the processing

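Counts of calls over all genes and the 10 stayed within 1.5 times with RLE factors, no filter on low counts and the Y-linked term. Removal of the 20 most abundant genes, which removes 5 of the 10 genes, kept them within that range too. Library sizes without Alb gave the same counts, 1906 genes higher and 1514 lower. TMM factors were computed anew from those sizes and offset the change, so that setting could not test the share of Alb. List counts moved further with the Y-linked term (uptake receptors 2 lower against 4, other carriers 3 higher against 1, secretory route 2 higher against 1), without the 20 most abundant genes (uptake receptors 1 higher against 0) and without the filter (secretory route 0 higher against 1). Ambp lost its call without the filter and with the Y-linked term (edgeR adjusted p = 0.0585 and 0.0633). Library size alone gave 4810 genes higher and 595 lower, against 1906 and 1514, and 2 of the 10 genes higher (Hpx and Itih2). With it Ahsg was at 0.29, and the medians of the uptake receptor and secretory route lists were 0.0863 and 0.39. DESeq2 called 6 of the 10 as lower, the other 3 being Ttr, Gc and Itih1. It also called more genes in all, 2361 as higher and 2022 as lower. With 1 library left out, 840 to 1932 genes were higher and 518 to 1582 lower, and 0 to 4 of the 10 were lower with 0 higher. Over those fits the secretory route median ran from -0.21 to 0.0382 (0.0201 without wild-type liver 1), Ahsg from -0.55 to 0.0198 and Itih3 from -0.058 to 0.35. Ahsg was at 0.21 with the Y-linked term. The ratio of Itih1 to Ambp changed by -0.0059 to 0.16 on the log2 scale; the other 7 ratios kept their direction. The cause of these shifts was not tested.

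Replicate numbers share only a number: same-numbered deviations correlated at 0.0839, -0.0174 and 0.0335, and not every sample correlated best with its own number. With the replicate block 1528 genes were higher and 1155 lower, and 1 of the 10 was lower, Fetub. For the ratios, the block leaves the difference of group means unchanged by arithmetic (0.80 for Gc to Alb and 1.47 for Itih2 to Ambp). It could therefore not test those sizes, and 3 sign flips allow no two-sided p below 0.25.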
